A study of Mus musculus with 29 samples.

Results

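The genes described here carry out DNA replication or mark S phase, the part of the cell cycle in which DNA is copied. A list of 39 mouse genes was taken by symbol, and a probe set stood for a gene only where the array annotation named that gene alone. The list held 67 such probe sets for 38 genes, out of 12393 genes with a probe set of their own, and Chaf1a had none annotated to it alone. For each gene the probe set with the highest mean over all arrays was used. Of these, 36 reached the level required for testing (at least 3 arrays above log2 6.99, the median of all values), as did 7153 genes in all. The level was exceeded on all 29 arrays by 32 of the 36 genes, and Cdc45, Cdc6, Pole and Ung exceeded it on 25 to 28 arrays. Orc1 and Tyms stayed below it and were not tested.

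The samples were macrophages derived from bone marrow of 8-week-old C57BL/6 mice, which were wild-type. Marrow cells had grown in Teflon bags for 7 days with CSF-1 at 10 ng/ml, the growth factor under which marrow precursors become macrophages, and were then cultured for 24 h with CSF-1 still present in every group. The groups were no added cytokine (unstimulated, 8 arrays), IL-4 (5 arrays), IL-6 (5 arrays), IL-10 (3 arrays), IL-4+IL-6 (5 arrays) and IL-4+IL-10 (3 arrays), each cytokine at 10 ng/ml. The labels do not say whether arrays of a group came from separate mice or cultures, so the p-values measure only the spread between these arrays.

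Replication begins when the origin recognition complex, with Cdc6 and Cdt1, loads the ring of Mcm2 to Mcm7 onto DNA, a step called origin licensing. Cdc45 and the GINS complex turn this ring into a moving helicase, primase with polymerase alpha starts each strand, polymerases delta and epsilon extend it, and the PCNA clamp, placed by replication factor C, holds them to DNA. Most of these genes are targets of E2F transcription factors and are switched on together as cells enter S phase, and marrow-derived macrophages divide in response to CSF-1.

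Promoter letters are shown because the members are known for a shared promoter element. RefSeq promoters (GRCm38.p6, 250 bases before to 50 after the start site, 300 in all) were found for 33 of the 39 genes. Mcm4, Rfc2, Prim2, Ccne2, Gins1 and Pole were missing from the table. The 4 promoters printed belong to the genes called in the most comparisons (10 of 12 for Uhrf1, 9 for Mcm7, 8 for Cdt1 and 7 for Cdc6) among those that hold an E2F word. Cdc6 was tied at 7 with Mcm5, Mcm6 and Pold1 and was taken by alphabet. Each is given 5′ to 3′ on the strand of the gene, with capitals marking a match to TTTCCCGC, TTTCGCGC, TTTGCCGC or TTTGGCGC on either strand. Uhrf1 lies at chr17:56304063-56304362 (+), Mcm7 at chr5:138171834-138172133 (-), Cdt1 at chr8:122567765-122568064 (+) and Cdc6 at chr11:98907901-98908200 (+). Where a gene had several promoters, the first that held an E2F word was printed. Uhrf1 and Mcm7 each had another without one, at chr17:56303087-56303386 and chr5:138171217-138171516. The gene spans of Uhrf1 and Cdc6 begin at 56303337 and 98907709, before their printed windows.
Uhrf1: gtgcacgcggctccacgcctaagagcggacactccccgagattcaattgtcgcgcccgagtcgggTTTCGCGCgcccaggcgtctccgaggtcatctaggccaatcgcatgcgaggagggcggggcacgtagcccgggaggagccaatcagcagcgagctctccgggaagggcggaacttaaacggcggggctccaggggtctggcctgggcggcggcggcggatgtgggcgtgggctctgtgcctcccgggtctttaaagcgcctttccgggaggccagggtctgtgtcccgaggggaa
Mcm7: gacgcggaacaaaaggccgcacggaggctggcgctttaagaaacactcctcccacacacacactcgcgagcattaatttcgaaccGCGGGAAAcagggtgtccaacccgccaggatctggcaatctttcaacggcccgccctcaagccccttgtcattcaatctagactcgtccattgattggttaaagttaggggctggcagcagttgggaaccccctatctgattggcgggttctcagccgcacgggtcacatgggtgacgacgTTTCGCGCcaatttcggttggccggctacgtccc
Cdt1: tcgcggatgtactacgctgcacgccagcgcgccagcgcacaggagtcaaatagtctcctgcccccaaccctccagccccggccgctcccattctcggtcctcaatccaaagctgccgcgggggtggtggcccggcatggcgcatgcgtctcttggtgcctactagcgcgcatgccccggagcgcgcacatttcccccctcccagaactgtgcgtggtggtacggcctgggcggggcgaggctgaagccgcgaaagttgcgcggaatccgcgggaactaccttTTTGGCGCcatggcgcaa
Cdc6: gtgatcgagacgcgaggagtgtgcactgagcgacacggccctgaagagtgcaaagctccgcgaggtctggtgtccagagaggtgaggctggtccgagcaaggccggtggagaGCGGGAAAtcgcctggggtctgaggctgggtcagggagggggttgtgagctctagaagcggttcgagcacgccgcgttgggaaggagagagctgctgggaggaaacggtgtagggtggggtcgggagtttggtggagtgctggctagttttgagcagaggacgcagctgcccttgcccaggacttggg
With the start site counted as 0, the word in Uhrf1 ran from -185 to -178 and that in Cdt1 from 32 to 39, both on the gene's strand. The word in Cdc6 lay on the opposite strand from -138 to -131. Mcm7 had one on the opposite strand from -165 to -158 and one on its own strand from 16 to 23, whose last base was also the first base of a CCAAT. At least 1 promoter held an E2F word in 13 of the 33 genes (39.4%), against 2.6% of all 27025 genes in the table. Of its 32851 promoters, 2.26% held one. CCAAT, the letters bound by NF-Y, was found on either strand in 19 of 33 (57.6%, against 41.1% of all genes). TTTGAA, the CHR element of mitotic genes, was found in 4 of 33 (12.1%, against 20.2% of all genes). In Mcm5 and Mcm6, E2F words on opposite strands overlapped each other. Rfc3, which held E2F words, was called in 0 of the 12 comparisons. Tk1 and Rrm2, which had the largest falls with IL-4+IL-6 below, held no E2F word in the window. These matches are a description of letters in a window, and a link between the words and the changes in level was not tested.

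Several features of the arrays touch the results. Only the unstimulated group has replicates 6 to 8, and these were read as the controls of the IL-10 and IL-4+IL-10 arrays (the second set), with replicates 1 to 5 as those of the other groups (the first set). The labels do not state this. Between unstimulated replicates 6 to 8 and 1 to 5, 2 of the 36 genes were higher and 0 lower (limma adjusted p under 0.05), against 12.3% and 6.82% of all genes tested. These were Pola1 (log2 difference 0.48) and Rpa1 (0.22), for polymerase alpha's catalytic subunit and the large subunit of the single-strand binding protein RPA. With IL-10, replicate 1 was the highest of the 3 arrays for 36 of 36 genes. Its Socs3 level, a gene induced by STAT3, was log2 11.82, beside 12.22 and 12.36 on the other IL-10 arrays and 6.12 to 6.99 on unstimulated arrays. With IL-4+IL-6, replicate 2 was the lowest of the 5 arrays for 33 of 36 genes.

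Macrophage markers were abundant, with a summed level of log2 16.2 to 16.8. All 10 passed the filter, and 9 of them exceeded it on every array. The exception was Cx3cr1, a chemokine receptor, whose mean was 8.85 unstimulated and 6.03 to 6.14 in the 3 groups with IL-4. Of other cell types, T and NK markers (0 of 7) and stromal markers (0 of 6) did not reach it, and 1 of 6 erythroid and 2 of 9 progenitor markers did. The summed dendritic cell markers (3 of 6 above the filter) moved with IL-4, from log2 10.7 to 11.5 on unstimulated arrays to 12.8 to 13.1 with IL-4. Most of this sum was Itgax, whose mean was 11.02 unstimulated and 12.88 with IL-4. Of the other markers that passed, Ccr7 was at 6.41 and 7.14 and Cd209a at 5.62 and 5.66. Neutrophil markers (5 of 6) lay at log2 12.76 to 13.44 on unstimulated arrays and 12.04 to 12.44 with IL-4+IL-6. B lineage markers (3 of 8) differed between the unstimulated sets, at 8.92 to 9.90 on replicates 1 to 5 and 8.44 to 8.51 on replicates 6 to 8. They lay at 8.42 to 8.51 with IL-10 and 7.98 to 8.21 with IL-4+IL-10. The difference between 3′ and 5′ Actb probe sets, a sign of RNA quality, was log2 0.309 to 0.329 on unstimulated replicates 1 to 5 and 0.366 to 0.504 on replicates 6 to 8. In the first set it was 0.345 to 0.391 with IL-4+IL-6, above all 5 unstimulated arrays, 0.294 to 0.340 with IL-4 and 0.220 to 0.263 with IL-6. It was 0.310 to 0.363 with IL-10 and 0.377 to 0.441 with IL-4+IL-10. The highest value with IL-4+IL-6, 0.391, was that of replicate 2, and the lowest with IL-10, 0.310, that of replicate 1. The part of these markers in the results below was not tested. In bulk RNA, fewer cells in S phase and less replication RNA per cell cannot be told apart.

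Across the 6 groups the replication genes were highest with IL-4 and mostly lowest with IL-4+IL-6. IL-4 had the highest group mean for 34 of the 36 genes. Tk1, whose kinase salvages thymidine, was highest on unstimulated arrays, and Dut, whose enzyme breaks down dUTP, was highest with IL-4+IL-10. IL-4+IL-6 had the lowest mean for 26 genes, IL-10 for 6 and IL-6 for 4. Of all 7153 genes, 1039 were highest with IL-4 and 1709 lowest with IL-4+IL-6.

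**Figure D1:**
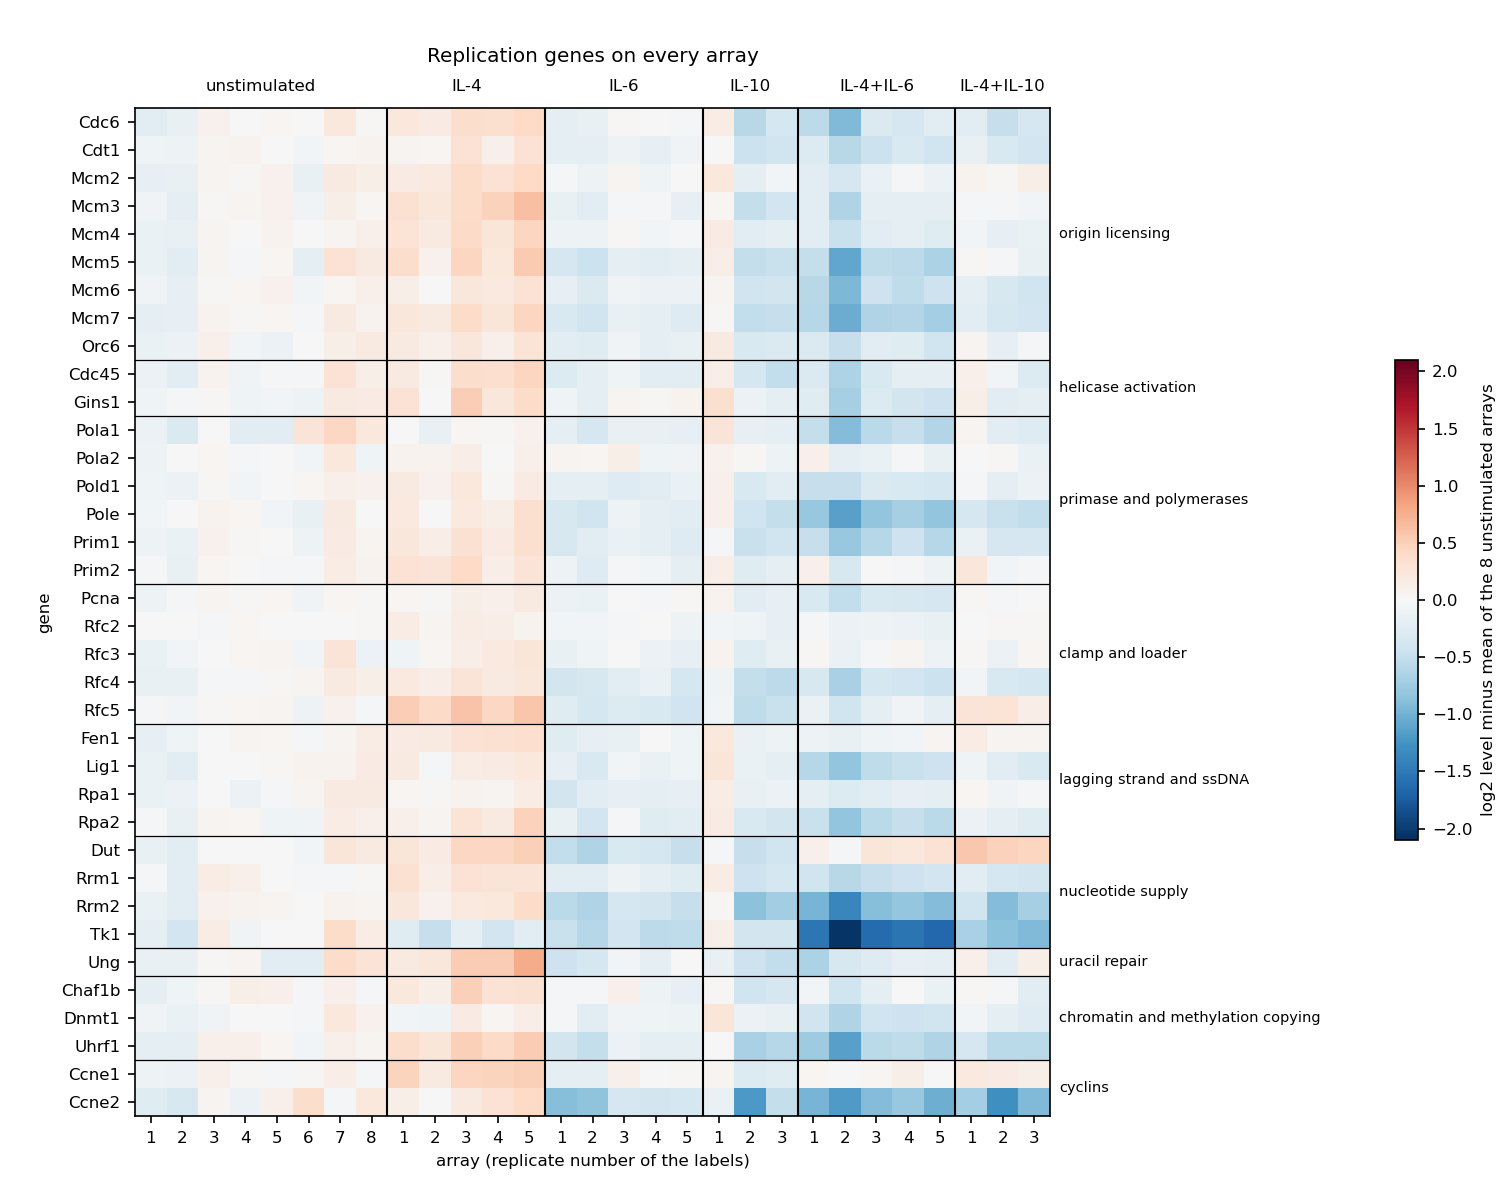
Log2 level of each of the 36 genes (rows, grouped by role) on each of the 29 arrays (columns, by group and replicate number), minus the gene's mean over the 8 unstimulated arrays; red is higher and blue is lower. The 5 IL-4 columns are red for most genes, with 8 of the 36 genes below the unstimulated mean on replicate 2 and 1 to 3 on the others. IL-10 replicate 1 differs from replicates 2 and 3, and Tk1 is the darkest blue with IL-4+IL-6.

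The median over the 36 genes, taken on each array after subtracting each gene's unstimulated mean, gives one number per array on the log2 scale. It ran from -0.15 to 0.16 on unstimulated arrays and from 0.09 to 0.33 with IL-4 (mean 0.23 ± 0.10, SD, n = 5). With IL-6 it ran from -0.24 to -0.09 (mean -0.17 ± 0.06, SD, n = 5), so both of these groups overlapped the unstimulated arrays. With IL-4+IL-6 the arrays stood at -0.33, -0.60, -0.31, -0.33 and -0.38, all below every unstimulated, IL-4 and IL-6 array. The IL-10 arrays stood at 0.10, -0.37 and -0.37 and the IL-4+IL-10 arrays at -0.01, -0.18 and -0.21.

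**Figure D2:**
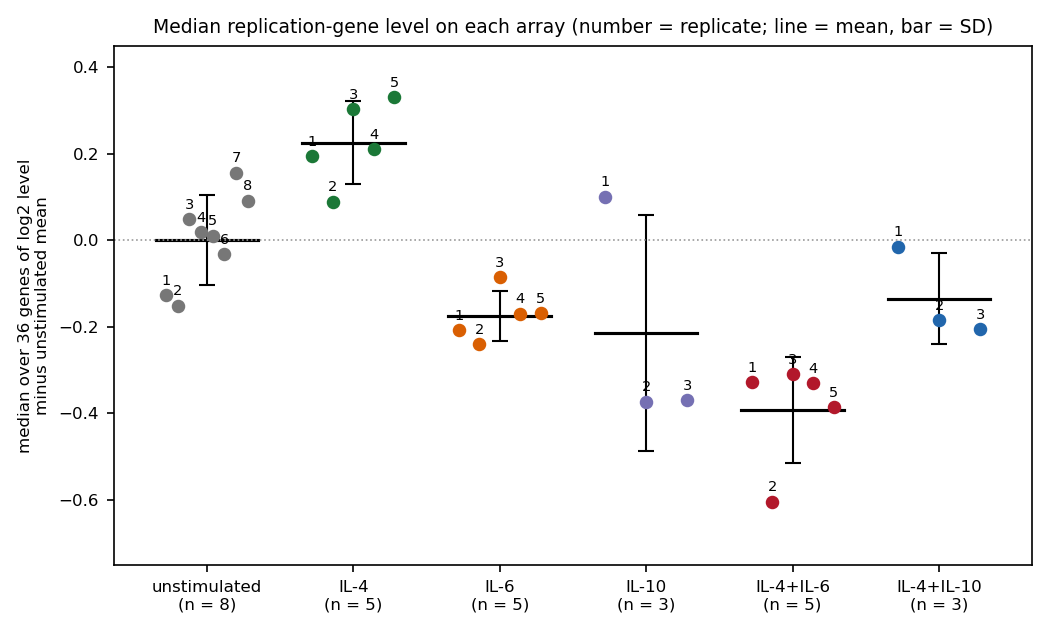
Median over 36 replication genes of the log2 level minus the unstimulated mean (vertical axis), one point per array with its replicate number, by group; lines are group means and bars are SD. The 5 IL-4+IL-6 points, from -0.60 to -0.31, lie below all unstimulated points, and IL-10 replicate 1 (0.10) lies apart from replicates 2 and 3 (both -0.37).

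IL-4 alone was compared with no added cytokine to show what the STAT6-activating cytokine did by itself. With IL-4, 24 of the 36 replication genes rose (66.7%, against 27.6% of all genes tested) and 1 fell (2.78%, against 31.9%), by limma at an adjusted p under 0.05. The median log2 difference was 0.23, against -0.01 over all genes tested. The rises were small, and the largest was that of Rfc5 at 0.51. With same-numbered arrays as a block within the first set, where the numbers were taken to pair the arrays, 34 genes rose and 1 fell. The 10 calls gained there were Ccne2, Dnmt1, Lig1, Mcm6, Pcna, Pola1, Pole, Rfc3, Rpa1 and Rrm2. The shares of 27.6% and 31.9% belong to the fit without a block, and the share of all genes with the block is not given. In 10 of the 36 genes all IL-4 arrays lay above all unstimulated arrays, against 15.9% of all genes.

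IL-6 and IL-10, which both activate STAT3, were compared with the same unstimulated arrays. With IL-6, 16 of 36 genes fell (44.4%, against 23.2% of all genes tested) and 0 rose (against 16.1%), with a median log2 difference of -0.19. With all IL-6 arrays below all unstimulated arrays there were 7 genes, against 11.6% of all genes. Against unstimulated replicates 1 to 5 alone, 10 genes fell. The genes that fell most with IL-6 were Ccne2 (-0.57), Tk1 (-0.51), Rrm2 (-0.49) and Dut (-0.46). Cdc6, Mcm2, Mcm3, Mcm4 and Mcm6, Cdc45 and Gins1, Pola1, Pola2 and Prim2 were among those that did not pass the test. With the same block, 20 genes fell, with Cdt1, Fen1, Lig1 and Mcm6 gained. No share of all genes stands beside this count or the count against replicates 1 to 5.

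With IL-10, 16 of 36 genes fell (44.4%, against 19.5% of all genes) and 0 rose (against 18.3%), with a median of -0.22. This count turned on single arrays. It was 26 without IL-10 replicate 1, where the median was -0.39, and 3 without replicate 2 or 5 without replicate 3. Fitted with only the IL-10 and unstimulated arrays, it was 10. The share of all genes called in these refits is not given. All 3 IL-10 arrays lay below all unstimulated arrays for 1 gene, against 11% of all genes. The largest falls were those of Ccne2 (-0.62), Rrm2 (-0.53) and Uhrf1 (-0.43), and none of these 3 passed without IL-10 replicate 2 (adjusted p 0.156, 0.0592 and 0.101).

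With IL-4+IL-6, 29 of 36 genes fell against unstimulated arrays (80.6%, against 38.8% of all genes tested) and 0 rose (against 35%). The median log2 difference was -0.40, against -0.02 over all genes. The groups did not overlap for 22 of the lower genes, against 27.6% of all genes. The 7 genes that did not pass the test were Chaf1b, Pola2, Prim2, Fen1, Rfc3, Ccne1 and Dut, with differences from -0.16 to 0.17. With same-numbered arrays as a block within the first set, Dut rose (0.25, adjusted p 1.29e-06).

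The contrast was wider against IL-4 alone, which asks what adding IL-6 to IL-4 did. There 34 of 36 genes fell (94.4%, against 31.2% of all genes) and 0 rose (against 29.4%), with a median of -0.63. All IL-4+IL-6 arrays lay below all IL-4 arrays for 33 genes, against 24.2% of all genes. Against IL-6 alone, 20 genes fell (55.6%, against 32.9%) and 1 rose (2.78%, against 34%), with a median of -0.24. In that comparison 19 lower genes did not overlap, against 26.5% of all genes, and the riser was Dut at 0.64. These comparisons share the IL-4+IL-6 arrays.

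Of the licensing genes, 8 of 9 rose with IL-4 (against 27.6% of all genes tested), 3 of 9 fell with IL-6 (against 23.2%), and 9 of 9 fell with IL-4+IL-6 both from unstimulated (against 38.8%) and from IL-4 (against 31.2%). The IL-6 count is near the background. Mcm7, a subunit of the helicase ring, lay at log2 11.12 to 11.50 (median 11.33) unstimulated, at 11.54, 11.50, 11.69, 11.56 and 11.76 with IL-4, and at 10.70, 10.27, 10.67, 10.70 and 10.59 with IL-4+IL-6. With IL-6 it read 10.98, 10.89, 11.15, 11.11 and 11.03. The combination's arrays were the lowest of all, below every array of both single cytokines. Mcm7 rose by 0.31 ± 0.083 (SE, adjusted p 0.00231) with IL-4. It fell by 0.72 ± 0.083 (adjusted p 1.11e-08, 1.64-fold lower) with IL-4+IL-6, and was 2.03-fold lower than with IL-4 (-1.02 ± 0.092, adjusted p 1.64e-10).

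Mcm5, another ring subunit, lay at log2 8.71 to 9.24 (median 8.96) unstimulated, at 9.31, 9.03, 9.39, 9.16 and 9.50 with IL-4, and at 8.45, 7.85, 8.42, 8.39 and 8.28 with IL-4+IL-6. The last group was below all arrays of the other 2, with replicate 2 lowest. Its difference from IL-4 was -1.0 ± 0.121 (adjusted p 4.59e-08). Mcm6 lay at 11.10 to 11.37 (median 11.30) unstimulated, at 11.39, 11.26, 11.50, 11.47 and 11.57 with IL-4 and at 10.69, 10.32, 10.84, 10.73 and 10.83 with IL-4+IL-6. Its IL-4 difference (0.17, adjusted p 0.071) missed the threshold, and passed with the block within the first set (0.19, adjusted p 0.000654).

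On the probe sets used, Mcm3 and Mcm4 rose with IL-4 without overlap and had smaller falls with the combination than Mcm5 and Mcm7. Mcm3 lay at log2 9.45 to 9.76 (median 9.68) unstimulated, at 9.96, 9.88, 10.03, 10.12 and 10.27 with IL-4, and at 9.42, 9.01, 9.43, 9.44 and 9.46 with IL-4+IL-6. Mcm4 lay at 10.30 to 10.56 (median 10.49), at 10.74, 10.65, 10.86, 10.70 and 10.91, and at 10.23, 9.99, 10.23, 10.25 and 10.20 in the same order. The IL-4+IL-6 values overlapped the lower unstimulated ones for Mcm3 (difference -0.29) and not for Mcm4 (-0.27). The other Mcm4 probe set overlapped in both comparisons. It read 9.67 to 10.38 unstimulated, 9.97 to 10.42 with IL-4 and 9.17 to 9.67 with IL-4+IL-6. Mcm2 was the ring subunit with the smallest fall (-0.17, adjusted p 0.0285), from 9.29 to 9.66 unstimulated to 9.23, 9.11, 9.32, 9.44 and 9.34, with overlap. Its call was lost without unstimulated replicate 7 or 8 or without IL-4+IL-6 replicate 1 or 2 (adjusted p 0.0547 to 0.115).

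On the probe sets used, the loading factors moved in the same directions. Cdc6, an ATPase that brings the Mcm ring to origins, lay at log2 7.27 to 7.72 (median 7.53) unstimulated, at 7.73, 7.68, 7.89, 7.84 and 7.92 with IL-4, and at 6.97, 6.58, 7.21, 7.16 and 7.29 with IL-4+IL-6. Both groups overlapped the unstimulated arrays, IL-4 by replicate 2 at the top of the range and the combination by replicate 5 at its foot, and did not overlap each other. Cdc6 rose by 0.30 ± 0.104 (adjusted p 0.0142) with IL-4 and was lower with the combination than with IL-4 (-0.77 ± 0.116, adjusted p 1.6e-06). Cdt1, its partner, lay at 11.09 to 11.27 (median 11.21) unstimulated, and at 10.90, 10.61, 10.74, 10.87 and 10.77 with IL-4+IL-6, all below. Its rise with IL-4 (0.16, adjusted p 0.0383) was lost without unstimulated replicate 1, 2 or 6 or IL-4 replicate 3 or 5 (adjusted p 0.0603 to 0.132). The other Cdt1 probe set above the filter read 9.54 to 10.00 unstimulated and 9.59 to 9.88 with IL-4, inside that range. It read 8.95 to 9.29 with IL-4+IL-6. Orc6, a subunit of the origin recognition complex, lay at 8.26 to 8.59 unstimulated and at 8.09, 7.91, 8.16, 8.13 and 7.98 with IL-4+IL-6 (difference -0.34). Orc1, the ATPase subunit of that complex, stayed below the filter, at 5.43 to 5.96 unstimulated and 5.86 to 6.22 with IL-4, and has no test.

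**Figure D3:**
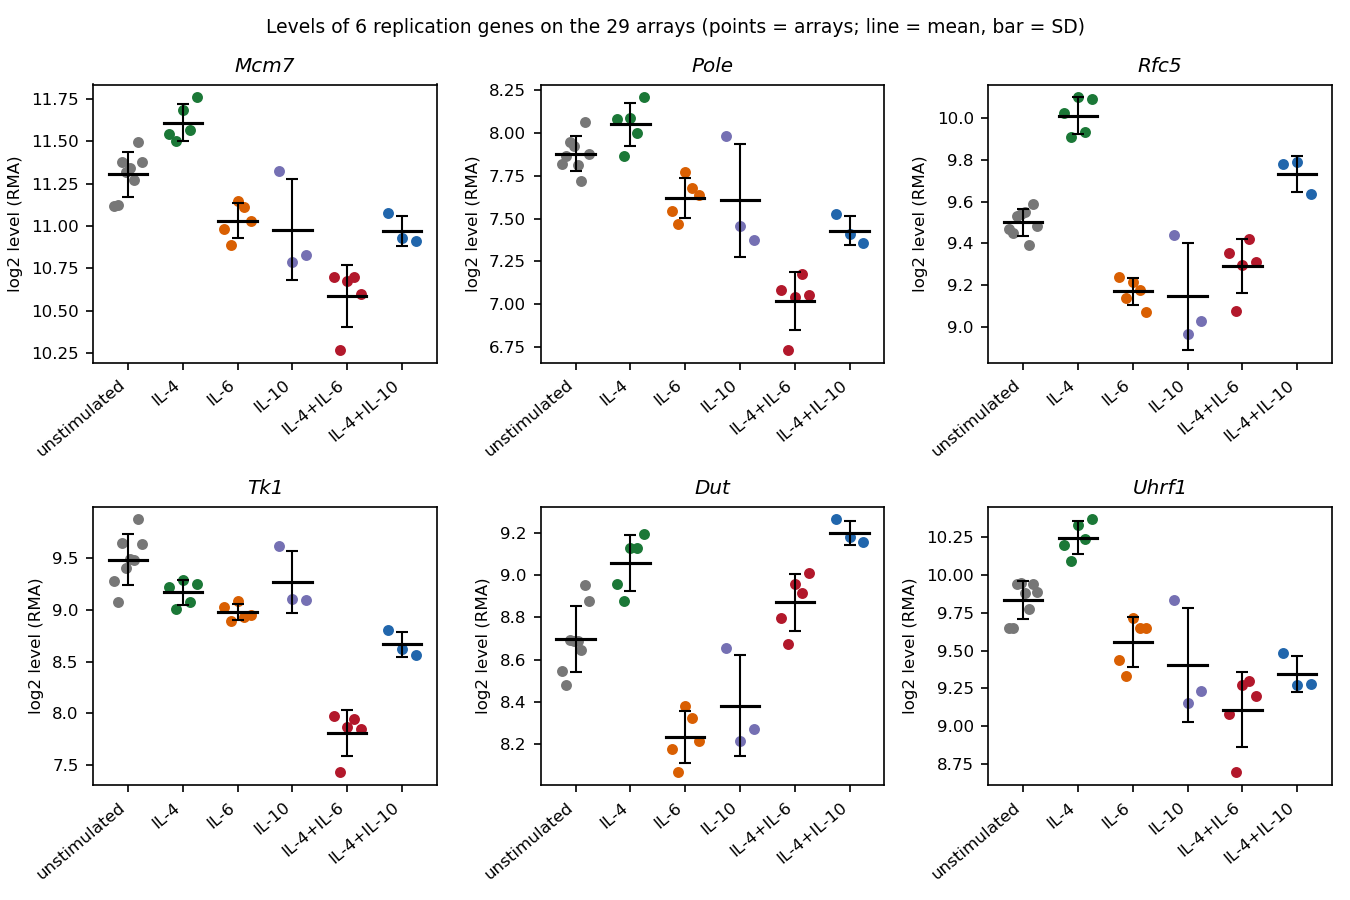
RMA log2 level of Mcm7, Pole, Rfc5, Tk1, Dut and Uhrf1 (vertical axes, each with its own range) on the 29 arrays by group; points are arrays, lines are means and bars are SD. Mcm7, Pole and Uhrf1 are lowest with IL-4+IL-6, Tk1 is not raised by IL-4, and Dut is higher in both combinations than with IL-6 or IL-10 alone.

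Both helicase activation genes rose with IL-4 (against 27.6% of all genes tested) and fell with IL-4+IL-6 (against 38.8%). Neither passed the test with IL-6, IL-10 or IL-4+IL-10. Gins1, a GINS subunit, lay at log2 8.26 to 8.56 (median 8.32) unstimulated, at 8.67, 8.37, 8.88, 8.60 and 8.75 with IL-4, and at 8.12, 7.67, 8.08, 7.99 and 7.93 with IL-4+IL-6. With IL-6 alone it read 8.28, 8.19, 8.43, 8.39 and 8.44, with replicate 2 alone below the unstimulated range. Cdc45 lay at 7.12 to 7.66 unstimulated, at 7.56, 7.38, 7.73, 7.72 and 7.81 with IL-4 and at 7.05, 6.71, 7.05, 7.15 and 7.17 with IL-4+IL-6, the last overlapping the unstimulated arrays. Its rise with IL-4 did not pass without IL-4 replicate 5 (adjusted p 0.061).

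Of the 6 primase and polymerase genes, 3 rose with IL-4 (against 27.6% of all genes), 3 fell with IL-6 (against 23.2%), 4 fell with IL-4+IL-6 (against 38.8%), and 6 were lower with IL-4+IL-6 than with IL-4 (against 31.2%). Pole, the catalytic subunit of polymerase epsilon, had the largest difference of this role. It lay at log2 7.72 to 8.06 (median 7.87) unstimulated, at 8.08, 7.86, 8.09, 8.00 and 8.21 with IL-4, at 7.54, 7.47, 7.77, 7.68 and 7.64 with IL-6, and at 7.08, 6.73, 7.04, 7.18 and 7.05 with IL-4+IL-6. No IL-4+IL-6 array reached any other array of those groups. Pole fell by 0.86 ± 0.083 (adjusted p 3.12e-10, 1.82-fold lower), while its difference with IL-4 alone, 0.17, did not pass (adjusted p 0.0777), and did with the block (0.18, adjusted p 0.00997).

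Prim1, the catalytic primase subunit, lay at log2 9.04 to 9.34 (median 9.19) unstimulated, at 9.40, 9.30, 9.48, 9.35 and 9.50 with IL-4, at 8.84, 8.93, 9.03, 8.97 and 8.90 with IL-6, and at 8.69, 8.38, 8.57, 8.73 and 8.57 with IL-4+IL-6. The IL-6 arrays lay below all unstimulated arrays and the IL-4+IL-6 arrays below all IL-6 arrays. Prim2, the regulatory primase subunit, rose with IL-4 (0.28) but had a difference of -0.08 with IL-4+IL-6 (adjusted p 0.303). Its arrays read 8.38, 7.94, 8.26, 8.23 and 8.16 there, across the unstimulated range of 8.12 to 8.43.

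The polymerase alpha pair differed from each other. Pola1 was at log2 8.03 to 8.77 unstimulated, with the 3 highest values (8.61, 8.77 and 8.56) on replicates 6 to 8, and at 7.85, 7.43, 7.78, 7.86 and 7.73 with IL-4+IL-6 (difference -0.61, adjusted p 1.12e-05). Its IL-4 difference was 0.0011 against all 8 unstimulated arrays and 0.18 (adjusted p 0.00234) against replicates 1 to 5 with same numbers as a block. Pola2, the second subunit, spanned 8.00 to 8.34 unstimulated, 8.10 to 8.25 with IL-4 and 7.92 to 8.21 with IL-4+IL-6. These ranges overlapped, and it passed the test in 1 of 9 pairwise comparisons, IL-4+IL-6 against IL-4 (-0.16, adjusted p 0.0228). Without IL-4 replicate 3 or IL-4+IL-6 replicate 2, 3 or 5 that adjusted p was 0.0514 to 0.0715. Pold1, the catalytic subunit of polymerase delta, fell by 0.40 with IL-4+IL-6 (adjusted p 3.89e-07), from 8.67 to 8.90 unstimulated to 8.30, 8.30, 8.49, 8.46 and 8.42.

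Pcna, the sliding clamp, moved little on the log2 scale. It lay at 13.71 to 13.88 (median 13.85) unstimulated, at 13.86, 13.85, 13.95, 13.92 and 14.00 with IL-4, and at 13.50, 13.30, 13.50, 13.49 and 13.47 with IL-4+IL-6. All arrays of the combination lay below all others of these groups (-0.37 ± 0.045, adjusted p 3.01e-08), and the difference with IL-4 (0.10, adjusted p 0.0722) did not pass, and did with the block (adjusted p 0.0148).

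Among the clamp loader subunits, Rfc5 had the largest IL-4 rise of all 36 genes. It lay at log2 9.39 to 9.59 (median 9.51) unstimulated and at 10.02, 9.91, 10.10, 9.93 and 10.09 with IL-4, with no overlap (0.51 ± 0.062, adjusted p 5.87e-08). It fell with IL-6 (9.24, 9.14, 9.22, 9.18 and 9.07, difference -0.33) and with IL-4+IL-6 (9.35, 9.08, 9.30, 9.42 and 9.31, difference -0.21). From IL-6 to IL-4+IL-6 its difference of 0.12 did not pass (adjusted p 0.117), and did with the block within the first set (adjusted p 0.0235). With IL-4+IL-10 it read 9.78, 9.79 and 9.63, above every unstimulated array (0.23 ± 0.074, adjusted p 0.00632), and below every IL-4 array. Rfc4 lay at 8.33 to 8.66 unstimulated, at 8.62 to 8.74 with IL-4 and at 8.15, 7.80, 8.11, 8.08 and 8.03 with IL-4+IL-6 (-0.45).

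The other loader subunits moved less. Rfc2 had tight values, 9.41 to 9.48 unstimulated, 9.50 to 9.61 with IL-4 and 9.29 to 9.42 with IL-4+IL-6, so differences of 0.12 and -0.11 passed the test. Rfc3, at 8.10 to 8.50 unstimulated, passed in 0 of 9 pairwise comparisons. With same-numbered arrays as a block within the first set, its IL-4 difference (0.13, adjusted p 0.0381) and its difference between IL-4+IL-6 and IL-4 (-0.15, adjusted p 0.0174) passed.

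Of the genes for the lagging strand and single-stranded DNA, Lig1, the ligase that joins Okazaki fragments, and Rpa2, the middle RPA subunit, had the larger falls with the combination. Lig1 lay at log2 9.46 to 9.86 (median 9.71) unstimulated, at 9.87, 9.66, 9.84, 9.85 and 9.91 with IL-4, and at 9.09, 8.85, 9.15, 9.22 and 9.24 with IL-4+IL-6 (-0.57). Rpa2 lay at 8.83 to 9.13 (median 8.97), at 9.09, 9.04, 9.26, 9.17 and 9.45, and at 8.50, 8.14, 8.41, 8.49 and 8.41 in the same order (-0.59). For both, all IL-4+IL-6 arrays were below all unstimulated and IL-4 arrays. Rpa1 fell by 0.24 with IL-6 and by 0.22 with IL-4+IL-6, both against all unstimulated arrays. It read 11.25 to 11.38 on unstimulated replicates 6 to 8 and 11.06 to 11.19 on replicates 1 to 5. With IL-6 it read 10.82 to 11.02, and with IL-4+IL-6 10.90 to 11.03, so the falls are smaller against replicates 1 to 5. Fen1, the nuclease that trims fragment ends, rose with IL-4 without overlap (11.06 to 11.24 against 10.71 to 11.04, difference 0.27) and had a difference of -0.07 with IL-4+IL-6 (adjusted p 0.286).

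The nucleotide supply genes fell and rose within one role. Tk1 lay at log2 9.08 to 9.87 (median 9.49) unstimulated, at 9.23, 9.01, 9.29, 9.08 and 9.25 with IL-4, at 9.02, 8.89, 9.08, 8.93 and 8.95 with IL-6, and at 7.97, 7.43, 7.87, 7.95 and 7.84 with IL-4+IL-6. It was the 1 gene of the 36 that fell with IL-4 (-0.32 ± 0.106, adjusted p 0.0121), with overlapping arrays. That call was lost with a term for the set of arrays and made with same-numbered arrays as a block. With IL-4+IL-6 every array was more than 1 log2 unit below the lowest unstimulated array, and Tk1 fell by 1.67 ± 0.106 (adjusted p 4.27e-14, 3.19-fold lower). It was 2.56-fold lower than with IL-4 and 2.24-fold lower than with IL-6.

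Rrm1 and Rrm2 encode the subunits of ribonucleotide reductase, which makes deoxyribonucleotides. Rrm2 lay at log2 10.32 to 10.63 (median 10.61) unstimulated, at 10.79, 10.63, 10.75, 10.77 and 10.93 with IL-4, at 9.98, 9.91, 10.18, 10.16 and 10.07 with IL-6, and at 9.58, 9.18, 9.65, 9.73 and 9.64 with IL-4+IL-6. The last 2 groups lay below all unstimulated arrays, and the combination below IL-6 alone (1.99-fold lower than unstimulated, -0.99 ± 0.109, adjusted p 4.26e-09). Its IL-4 difference, 0.23, missed the threshold (adjusted p 0.0763) and passed with the block (0.25, adjusted p 0.000307). Rrm1 lay at 10.00 to 10.37 (median 10.21) unstimulated, at 10.54, 10.36, 10.52, 10.49 and 10.49 with IL-4, and at 9.79, 9.64, 9.74, 9.77 and 9.82 with IL-4+IL-6 (-0.47).

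In the fit without blocks, Dut was the 1 member called higher with IL-4+IL-6 than with IL-6 alone. It lay at log2 8.48 to 8.95 (median 8.69) unstimulated, at 8.96, 8.88, 9.13, 9.13 and 9.19 with IL-4, and at 8.18, 8.07, 8.38, 8.33 and 8.22 with IL-6. With IL-4+IL-6 it read 8.80, 8.67, 8.96, 8.92 and 9.01, and with IL-4+IL-10 9.26, 9.18 and 9.16. The arrays of both combinations lay above all arrays of the matching single cytokine, IL-6 (0.64 ± 0.088, adjusted p 3.91e-07) or IL-10 (0.82 ± 0.114, adjusted p 6.69e-07). Against IL-4 alone it had -0.19 with IL-4+IL-6 (adjusted p 0.0705, and 5.32e-05 with the block) and 0.14 with IL-4+IL-10, neither called without the block. Tyms, thymidylate synthase, stayed below the filter, at 5.23 to 5.83 unstimulated, 5.34 to 5.71 with IL-4 and 4.45 to 4.73 with IL-4+IL-6, and was not tested.

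Ung, whose product removes uracil from DNA, lay at log2 7.18 to 7.82 (median 7.36) unstimulated, at 7.62, 7.66, 7.95, 7.96 and 8.21 with IL-4, and at 6.76, 7.08, 7.16, 7.26 and 7.22 with IL-4+IL-6. Both stimulated groups overlapped the unstimulated arrays but not each other. It rose by 0.45 ± 0.116 with IL-4 (adjusted p 0.00139) and fell by 0.33 with IL-4+IL-6 (adjusted p 0.0123). The fall did not pass without IL-4+IL-6 replicate 1 (adjusted p 0.0645).

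Uhrf1, which brings the methyltransferase Dnmt1 to newly copied DNA, had one of the widest spans between groups. It lay at log2 9.65 to 9.95 (median 9.88) unstimulated, at 10.20, 10.09, 10.33, 10.24 and 10.37 with IL-4, at 9.44, 9.33, 9.72, 9.65 and 9.65 with IL-6, and at 9.08, 8.69, 9.27, 9.30 and 9.20 with IL-4+IL-6. IL-4 arrays were all above, and IL-4+IL-6 arrays all below, the other 2 groups. It was 2.2-fold lower with IL-4+IL-6 than with IL-4 (-1.14 ± 0.113, adjusted p 1.07e-09). Dnmt1, which copies methylation, had a difference of 0.04 with IL-4 (0.10 with the block, adjusted p 0.0213) and fell by 0.47 with IL-4+IL-6, from 10.12 to 10.48 unstimulated to 9.84, 9.63, 9.83, 9.82 and 9.84. Chaf1b, a subunit of the chromatin assembly factor, rose with IL-4 (0.30) and had -0.16 with IL-4+IL-6 (adjusted p 0.0564).

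The 2 E-type cyclins, which activate Cdk2 at the start of S phase, differed. Ccne1 lay at log2 7.35 to 7.60 (median 7.47) unstimulated and rose with IL-4 to 7.95, 7.67, 7.93, 7.94 and 7.97, without overlap (0.42 ± 0.061, adjusted p 1.28e-06). With IL-4+IL-6 it read 7.52, 7.46, 7.51, 7.59 and 7.49, inside the unstimulated range (0.04, adjusted p 0.543). Ccne2 lay at 8.78 to 9.48 (median 9.13) unstimulated and at 9.24, 9.10, 9.31, 9.43 and 9.54 with IL-4, with overlap (0.20, adjusted p 0.222, and 0.32, adjusted p 0.00045, with the block). It read 8.23, 8.27, 8.77, 8.73 and 8.74 with IL-6 and 8.14, 7.93, 8.21, 8.33 and 8.09 with IL-4+IL-6, each group wholly below the unstimulated arrays. Its fall with the combination was 0.98 ± 0.142 (adjusted p 6.3e-07).

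The interaction of IL-4 with IL-6 compares the combination with the sum of the single effects on the log2 scale, so that 0 means the effects add. It was below 0 for 30 of 36 genes (83.3%, against 18.6% of all genes tested) and above 0 for 0 (against 21.4%), at a limma adjusted p under 0.05, with a median of -0.43. The sum of the single effects had a median of 0.04 over the 36 genes, while the combination had -0.40, and 35 genes lay below their sum. The largest were Uhrf1 (-0.86 ± 0.152, adjusted p 4.28e-05), Tk1 (-0.85 ± 0.158, adjusted p 8.83e-05), Pole (-0.77) and Mcm7 (-0.75). For Mcm7 the single effects were 0.31 and -0.27, and the combination's was -0.72. The 6 genes that were not called were Prim2, Fen1, Pola2, Rpa1, Rfc3 and Dut, and Dut lay above its sum (0.28 ± 0.119, adjusted p 0.0647). With the block within the first set 34 genes were below 0, and Dut passed above 0 (0.20, adjusted p 0.00129). The share of all genes in that fit is not given.

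**Figure D4:**
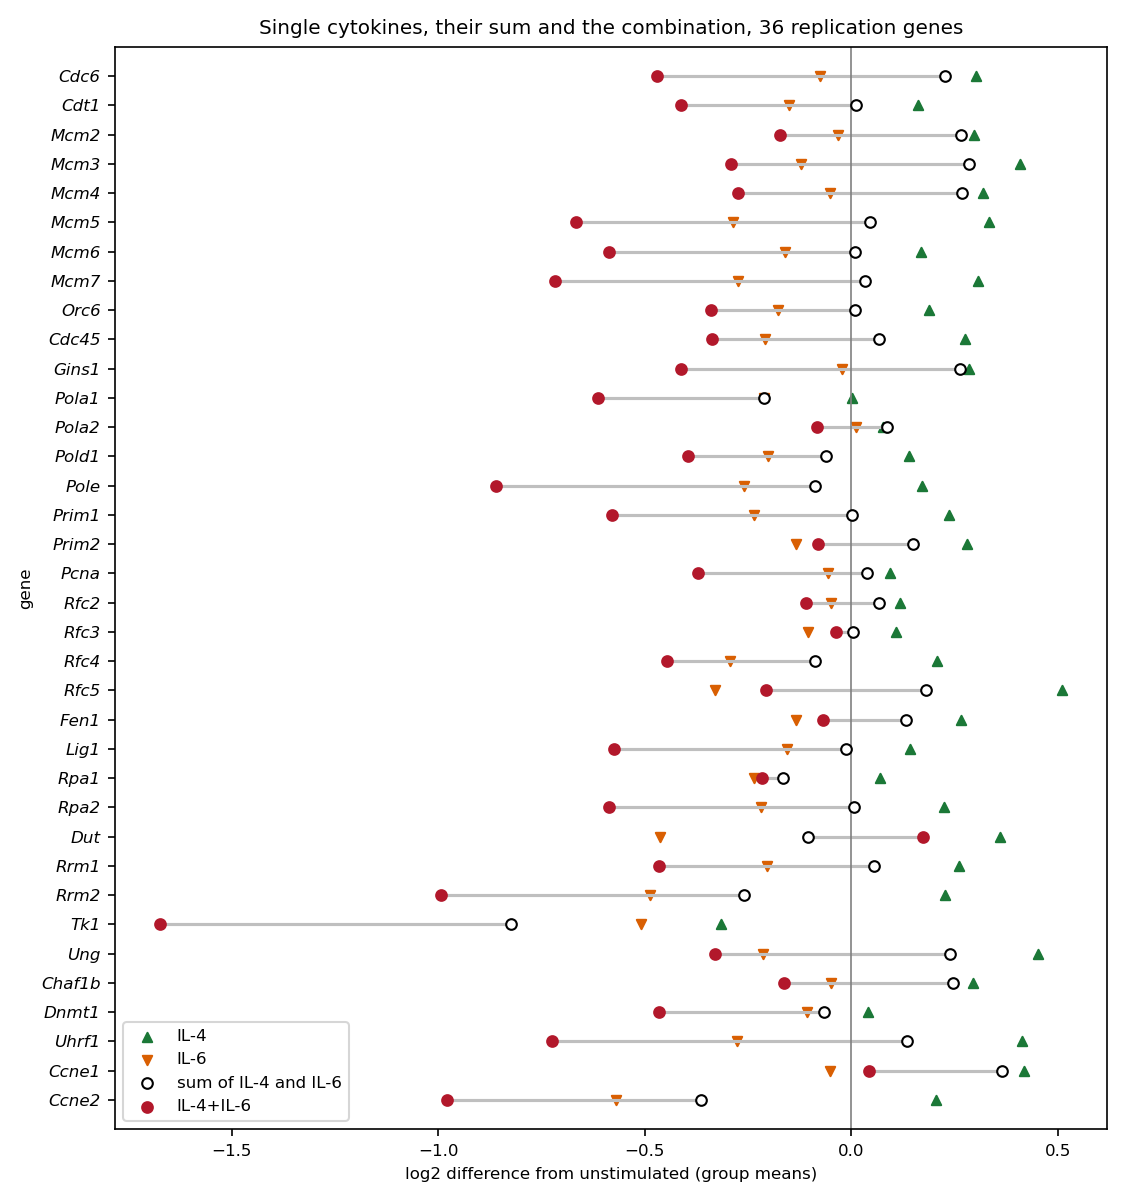
Log2 difference of group means from unstimulated (horizontal axis) for IL-4, IL-6, the sum of those 2 differences and IL-4+IL-6, for each of the 36 genes; the grey line joins the sum to the combination. The combination lies to the left of the sum for 35 genes and to the right for Dut.

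With IL-4+IL-10 the members divided. Against unstimulated arrays 13 of 36 genes fell (36.1%, against 34% of all genes tested, a share near the background) and 3 rose (8.33%, against 38.1%), with a median of -0.11. Groups did not overlap for 10 lower genes (against 26.9% of all genes) and 2 higher ones (against 29.3%). Ccne2 (8.41, 7.83 and 8.20, difference -0.97), Tk1 (8.80, 8.63 and 8.57, difference -0.82) and Rrm2 (10.13, 9.64 and 9.86, difference -0.67) lay below all unstimulated arrays. Dut (0.50), Rfc5 (0.23) and Ccne1 (0.16) were the 3 that rose. For Ccne1 the call was lost without any 1 of the IL-4+IL-10 arrays, or without unstimulated replicate 1, 2, 4, 5 or 8 (adjusted p 0.0509 to 0.134). Mcm5, at 8.96, 8.93 and 8.80, and Pcna, at 13.84, 13.79 and 13.81, stayed within the unstimulated range.

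Against IL-4 alone, 30 of 36 genes were lower with IL-4+IL-10 (83.3%, against 24.6% of all genes) and 0 higher (against 32.7%), with a median of -0.38. The arrays did not overlap for 26 of the 36 genes, called or not, against 22.2% of all genes. Pcna was without overlap and not called. These 2 groups lie in different sets, and the median was -0.52 once set was a term of the fit. The largest differences were those of Ccne2 (-1.18), Uhrf1 (-0.90), Rrm2 (-0.90), Cdc6 (-0.66) and Mcm7 (-0.64), and Uhrf1 read 9.48, 9.27 and 9.28 with IL-4+IL-10. Dut, Pola1, Pola2, Pcna, Rfc3 and Rpa1 were not called.

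Against IL-10 alone, within one set, 4 of 36 genes were higher with IL-4+IL-10 (11.1%, against 31.8% of all genes) and 1 was lower (2.78%, against 28.1%), with a median of 0.02. They were Dut (0.82), Rfc5 (0.59), Ccne1 (0.32) and Rfc2 (0.12), with Tk1 lower (-0.61 ± 0.152, adjusted p 0.00115). Without IL-10 replicate 1, 14 genes were higher and 1 lower, with a median of 0.16. With same-numbered arrays as a block, 8 were higher and 4 lower. Shares of all genes in these alternative fits are not given. The pairs had medians of -0.13, 0.13 and 0.10 for replicates 1, 2 and 3.

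The interaction of IL-4 with IL-10 was called for 4 of 36 genes, 1 above 0 (2.78%, against 15.5% of all genes) and 3 below (8.33%, against 10.1%), with a median of -0.16. These were Dut (0.46 ± 0.139, adjusted p 0.0165), and Uhrf1 (-0.47 ± 0.177, adjusted p 0.0488), Rrm1 (-0.37) and Mcm4 (-0.35). The count was 1 without IL-10 replicate 1 or IL-4+IL-10 replicate 2, 2 without IL-4+IL-10 replicate 3 and 7 without IL-10 replicate 2. With the replicate number as a block it was 12, though the numbers pair IL-10 arrays with unstimulated arrays of the other set.

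Same-numbered arrays of the first set were also compared one pair at a time. With IL-4, 35 of 36 genes were higher in all 5 pairs (against 31% of all genes), and Tk1 was lower in all 5 (against 32.9%). With IL-6, 25 were lower in all 5 pairs (against 27.7%). From IL-4 to IL-4+IL-6, 34 were lower in all 5 pairs (against 34.1%), and the pair medians were -0.54, -0.69, -0.67, -0.54 and -0.69.

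A gene's other probe sets were a further reading of the same arrays. There were 23 of them above the filter, for 18 genes, and none was called in the opposite direction to the gene's main probe set. In the comparisons of IL-4, IL-6, IL-10 and IL-4+IL-6 with unstimulated arrays, 23 of 23 had the same sign. It was 19 of 23 for IL-4+IL-10 against unstimulated, 14 of 23 against IL-10 and 20 of 23 for the interaction with IL-10. A shared sign says nothing of size, and the IL-4 arrays of Cdt1's other probe set lay inside the unstimulated range. Probe sets of 7 of the 36 genes carry the suffix _s_at or _x_at (Mcm2, Mcm3, Mcm7, Rrm2, Fen1, Dnmt1 and Pold1), which marks probes that can also bind related transcripts, so their levels are less certain.

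Genes that work beside the members were counted in the same way. Of 31 other genes of the fork and of origins, 17 were higher and 3 lower with IL-4 (median 0.13), and 2 were higher and 20 lower with IL-4+IL-6 (median -0.21). For these lists, the shares of all genes tested are 27.6% higher and 31.9% lower with IL-4, and 35% and 38.8% with IL-4+IL-6. Dna2, a nuclease of fragment processing, was 0.54 with IL-4, -0.91 with IL-6 and -1.62 with IL-4+IL-6. Top2a, a topoisomerase that peaks after S phase, was -1.20 with IL-4+IL-6, and Orc2 was 0.45. Of 20 other nucleotide supply genes, 9 were higher and 5 lower with IL-4, and 7 were higher and 6 lower with IL-4+IL-6 (median 0.10), the latter counts at or under the background. Among these, Dck, which salvages deoxycytidine, rose by 1.12 and Mthfd2, of mitochondrial folate metabolism, by 0.80.

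Of 29 mitosis genes, 1 was higher and 3 lower with IL-4 (median -0.06), whereas 29 were lower with IL-6 (median -0.44), 27 with IL-10 (-0.45), 29 with IL-4+IL-6 (-1.05) and 29 with IL-4+IL-10 (-0.62). Of all genes, 23.2% were lower with IL-6, 19.5% with IL-10, 38.8% with IL-4+IL-6 and 34% with IL-4+IL-10. Kif23, a motor of cell division, was -0.49, -0.84, -0.83, -1.56 and -1.29 in that order. Of 23 genes for E2F and RB proteins and S-phase kinases, 7 were higher and 7 lower with IL-4, near the background, and 4 were higher and 15 lower with IL-4+IL-6 (median -0.31). There, Cdkn1a, an inhibitor of cyclin-dependent kinases, was 0.51 and Cdkn1c, another, was -1.60, while Ccna2, the cyclin of S and G2, was -1.23. Of 21 genes for replication stress and mismatch repair, 8 were higher and 4 lower with IL-4 and 2 higher and 13 lower with IL-4+IL-6, Chek1 by -0.85. The IL-4 medians of the replication and mitosis lists, 0.23 and -0.06, are given side by side, and the difference between the lists was not tested.

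**Figure D5:**
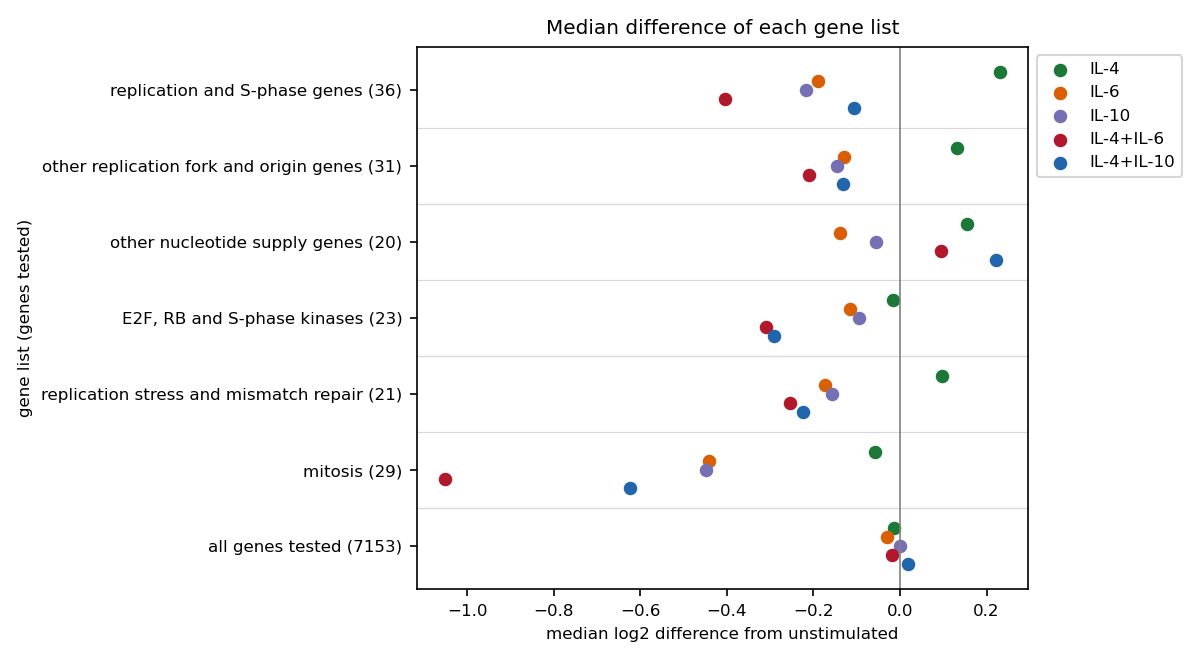
Median log2 difference from unstimulated (horizontal axis) over the tested genes of each list (number in brackets), with one point for each of the 5 stimulations. The replication genes have the highest IL-4 median (0.23) and the mitosis genes the lowest IL-4+IL-6 median (-1.05), while the medians over all 7153 genes lie near 0.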

How the data were processed

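RNA from 29 samples was hybridised to Affymetrix 3′ arrays of 22690 probe sets, from 75 ng of total RNA each per the labels' protocols. The authors deposited log2 intensities computed by RMA (background correction, quantile normalization, one value per probe set), per the submitters' processing notes, which also name GCOS 1.4. Whether the 29 arrays were normalized together, the RMA version and the annotation build are not given in the sources used here. Array medians were 6.95 to 7.03, correlations between arrays 0.973 to 0.998, and 0 pairs of arrays were identical. The values give no read depth, and the number of arrays limits the precision.

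The values were used as deposited. Probe sets annotated to exactly 1 gene (20380) gave 12393 genes, each represented by the probe set with the highest mean, and 7153 with at least 3 arrays above log2 6.99 were fitted with limma 3.58.1 in R 4.3.3 (all groups in one linear model, eBayes, two-sided, Benjamini-Hochberg adjustment over the 7153). A call is an adjusted p under 0.05, and ± beside a difference is its SE. There were 12 comparisons, in which the 5 stimulated groups were set against unstimulated arrays and the combinations against IL-4, IL-6 or IL-10 alone, with both interactions and unstimulated replicates 6 to 8 against 1 to 5. The fit was tested on simulated data.

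The members and lists were chosen with earlier results of these data known. By rule, every member is named, and from other lists up to 2 called genes per direction in comparisons with unstimulated. Promoter words were searched in Python 3.11.15.

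Same replicate numbers were checked for pairing by correlating deviations from group means. Within the first set 30 of 30 same-numbered pairs of arrays correlated above 0.1 (0.42 to 0.70), and between IL-10 and IL-4+IL-10 3 of 3 did (0.60 to 0.78), whereas 8 of 24 pairs across sets did. The numbers were therefore taken to pair arrays within sets. The alternatives were other normalizations, filters, probe set rules, thresholds, array weights, set terms, blocks and leaving out each array, and blocks within a set were added after seeing the data.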

Additional observations from a re-analysis of the deposited data

Results flagged for a closer look

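In IL-4+IL-6 replicate 2, 11 genes lay far below the other 4 arrays of the group, relative to the group's range: Mcm3 (log2 9.01), Mcm4 (9.99), Mcm5 (7.85), Mcm6 (10.3), Mcm7 (10.3), Pcna (13.3), Cdc45 (6.71), Rpa2 (8.14), Tk1 (7.43), Rrm2 (9.18) and Dnmt1 (9.63). The median over the 36 genes on that array, -0.60, was set apart in the same way. On single genes, unstimulated replicate 7 was far above its group for Rfc3 (8.50) and Pola2 (8.34), IL-4 replicate 2 far below for Ccne1 (7.67), and IL-6 replicate 2 far below for Pola1 (7.98). In all, 16 of 148 groups examined held such an array, and chance gives about 5% of groups, though genes on one array are not independent.

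By limma's test of the interaction, the effect of IL-6 differed with and without IL-4 for 30 of the 36 genes. All of these were below 0 (83.3%, against 18.6% of all genes tested), and 0 were above (against 21.4%). The effect of IL-10 differed for 4, with 3 below 0 (8.33%, against 10.1%) and 1 above (2.78%, against 15.5%). Both IL-10 shares are under the background. The 4 turned on single arrays, as given above.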

How the results depend on the processing

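The members' median kept its sign under every alternative run in 11 of 12 comparisons. In IL-4+IL-10 against IL-10 the median of 0.02 turned to -0.047 without IL-10 replicate 2, -0.025 without replicate 3, -0.029 without IL-4+IL-10 replicate 1 and -0.0071 with the 75th percentile filter. Leaving out each array in turn gave these ranges of the members' median log2 difference and of members called: IL-4 0.21 to 0.26 and 20 to 28; IL-6 -0.21 to -0.16 and 11 to 18; IL-10 -0.39 to -0.12 and 3 to 26; IL-4+IL-6 -0.42 to -0.35 and 29 to 30. For IL-4+IL-10 they were -0.16 to -0.08 and 12 to 17, for IL-4+IL-6 against IL-4 -0.67 to -0.57 and 33 to 35, and against IL-6 -0.25 to -0.20 and 20 to 23. For IL-4+IL-10 against IL-4 they were -0.43 to -0.32 and 23 to 30, against IL-10 -0.047 to 0.16 and 4 to 15, for the interaction with IL-6 -0.46 to -0.39 and 28 to 32, for that with IL-10 -0.24 to -0.036 and 1 to 7, and between unstimulated sets 0.06 to 0.15 and 2 to 3.

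With a filter at the 75th percentile (log2 9.16), which tests 22 members, the counts were 15 for IL-4, 21 for IL-4+IL-6 against IL-4, 19 for IL-4+IL-10 against IL-4, 19 for the interaction with IL-6 and 1 between unstimulated sets. At an adjusted p under 0.01 they were 16 for IL-4, 10 for IL-6, 9 for IL-10 and 0 for the interaction with IL-10. An absolute log2 difference of at least 1 left 6 genes for IL-4+IL-6 against IL-4, 1 each for IL-4+IL-6 against unstimulated and against IL-6 and for IL-4+IL-10 against IL-4, and 0 for the other 8 comparisons. With controls of the same set IL-6 had 10, and with only the groups compared IL-10 had 10. Averaging probe sets per gene gave 8 for IL-4+IL-10 against IL-10 and 2 for the interaction with IL-10, and array weights gave 2 for that interaction and 12 between unstimulated sets. A set term moved the median of IL-4+IL-10 against IL-4 to -0.52. Where no value above shows it, the cause was not tested.

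With the replicate number as a block, IL-4+IL-10 against IL-10 had 8 calls and the interaction with IL-10 had 12. Blocks counted within the sets gave 12 for IL-4+IL-10 against IL-10, and with the first set only 35 for IL-4, 20 for IL-6, 30 for IL-4+IL-6, 36 against IL-4, 26 against IL-6 and 35 for the interaction with IL-6. Controls of one set could not be chosen for comparisons between stimulated groups, or for the interaction with IL-10. Counts from alternative fits, here and in the results, have no share of all genes beside them.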
